A study of Pan troglodytes with 38 samples.

Results

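The chimpanzee hearts of the series differed widely in the RNA of S100A8 and S100A9, and the 12 hearts with the most and the 12 with the least of both were compared here for every other gene. The 37 ranked hearts, of the 38 of the series, were ordered by the mean log2(CPM + 0.5) of both genes, and heart 549 was left out of the ranking. In all, 24 of the 38 hearts were compared. CPM is each gene's share of the counts outside the 13 mitochondrially encoded genes, scaled to a fixed total. The samples are post-mortem heart tissue of captive-born chimpanzees, frozen before RNA extraction, with 1 library of polyadenylated RNA per animal. The study set chimpanzee hearts beside human hearts, which were not used here, and its labels give the chimpanzees no group, treatment or heart chamber. Some of the animals are close relatives. RNA was extracted in 2016 for 7 of the high and 4 of the low hearts and in 2018 for 5 of the high and 8 of the low hearts.

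S100A8 and S100A9 are small calcium-binding proteins that pair with each other and fill the cytosol of neutrophils and, less so, of monocytes. When these cells are activated or die, the pair is released and binds receptors of the innate immune system, among them Toll-like receptor 4 and the receptor AGER, which drive NF-kB and the expression of cytokines. In injured or inflamed heart muscle the pair is best known as a load that white blood cells carry in. In bulk tissue a gene can be higher because more cells of a type were present or because each cell held more of its RNA, and these cannot be told apart.

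The hearts were chosen by these values, so the levels of S100A8 and S100A9 are given as a description without a test. S100A8 lay between 30.7 and 254 CPM (median 46.8) in the high hearts and between 0.602 and 7.92 CPM (median 3.64) in the low hearts. S100A9 lay between 18.6 and 332 CPM (median 71.4) in the high hearts and between 1.62 and 8.36 CPM (median 5.35) in the low hearts. In reads, this is 33 to 420 for S100A8 in the low hearts and 1197 to 11902 in the high hearts, which is many more than the 3 reads that a count of 0 allows. Heart 338 had the highest mean of both genes, and the groups did not overlap for either gene, since both chose them. The ranking had no gap at its cuts, since the last high heart, 676, had a mean of 4.75 and the next heart, 558, had 4.64, and the last low heart, 4x0043, had 3.11 and the heart above it, 4X0333, had 3.12. Across the 37 hearts the log2 levels of both genes had a Pearson's r of 0.964 and a Spearman's rho of 0.969, and both share each library and its total. All 12 high and 12 low hearts stayed when the mitochondrially encoded genes were kept in the total, and 11 high and 11 low hearts stayed when the ranking was made from counts on orthologous exons. In the genome Pan_tro_3.0 the exons of S100A9 lie on chromosome 1 at 131423378 to 131426548 on the plus strand, those of S100A12 at 131439185 to 131441127 and those of S100A8 at 131455433 to 131456589, both on the minus strand, in a row of S100 genes.

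**Figure D1:**
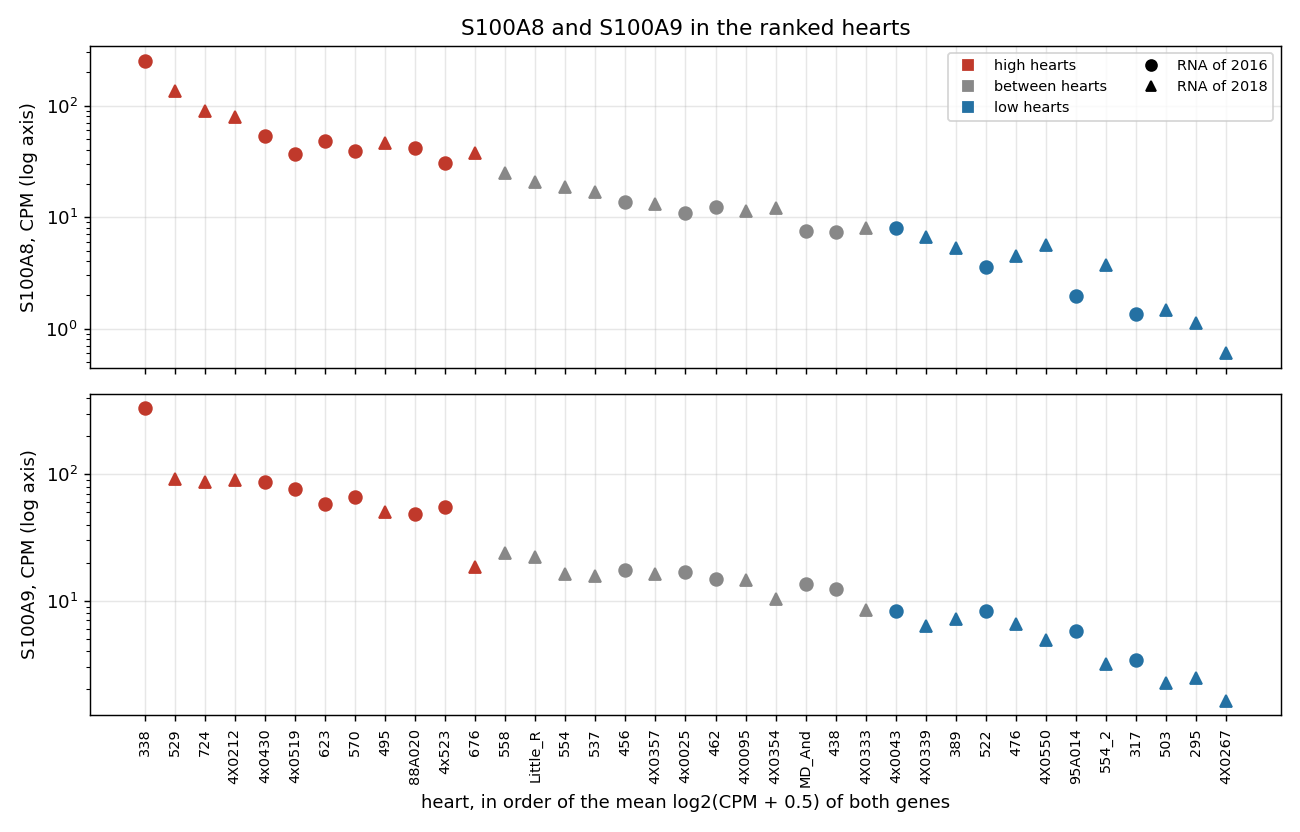
S100A8 (upper panel) and S100A9 (lower panel) in CPM on log axes in the 37 ranked hearts, in order of their mean level, with high hearts in red, low hearts in blue, hearts between in grey, circles for RNA of 2016 and triangles for RNA of 2018. The levels fall without a step at either cut, and heart 338 reaches 254 CPM for S100A8.

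The groups were compared first for measures that did not choose them. RNA integrity (RIN, which falls as RNA degrades) was 5.68 ± 1.53 (SD, n = 12) in the high hearts and 5.61 ± 1.61 (SD, n = 12) in the low hearts (two-sided permutation test within extraction year, adjusted p = 0.787). The share of counts on mitochondrially encoded genes was 30.7% ± 10.1 and 31.8% ± 7.07 (SD, n = 12 each, same permutation test, adjusted p = 0.829). High hearts came from younger animals, 24.6 ± 13.3 years (SD, n = 10) against 38.3 ± 11.3 years (SD, n = 11), a difference of -13.7 years that did not pass once adjusted over 4 measures (same permutation test, p = 0.0164, adjusted p = 0.0655). The difference in age was -18.4 years among RNA of 2016 and -12.0 years among RNA of 2018. The other measures changed sign between years. High minus low, RIN differed by 0.925 in 2016 and -1.355 in 2018, and the mitochondrial share by -3.20 and 4.02 percentage points. The log2 total without mitochondrially encoded genes differed by 0.197 and -0.567. The differences within a single year were not tested. Of the high hearts 7 were from females and 1 from an animal with a noted virus infection, and of the low hearts 5 and 3. The 3 primate centers gave 7, 4 and 1 hearts to each group. Totals without mitochondrially encoded genes were between 26121061 and 92850946 counts, so 1 CPM stood for 26.1 to 92.9 reads, and a count of 0 allows up to 3 reads, which is 0.0323 to 0.115 CPM (counting error only). Hearts 529 and 495 among the high and 4X0339 among the low had 52.7%, 45.3% and 51.7% of their counts on mitochondrially encoded genes, and 529 had the lowest median correlation with the other hearts of the series among the 24, 0.838. Counts and medians without these hearts are given for some of the lists, where those lists are described. Lists given without such values can also move with these hearts.

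Genes of heart muscle and of other cell types of the heart were measured in both groups. The sarcomere gene TNNT2, cardiac troponin T, lay between 5849 and 15479 CPM (median 11656) in the high hearts and between 8922 and 20842 CPM (median 13184) in the low hearts. PECAM1, VWF and other genes of the vessel lining, DCN of fibroblasts and ACTA2 of smooth muscle were also measured in all 24 hearts. The summed level over the atrial list was highest in heart 4x0519, at 14238 CPM against 4433 CPM in the highest low heart. Most of that sum came from the gene NPPA, at 11386 CPM in 4x0519, so the sum does not show that the whole list stood out. Whether the sampled chambers differed was not tested.

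Of 15156 genes tested, 221 were higher and 21 lower in the high hearts (edgeR quasi-likelihood test with extraction year as covariate, Benjamini-Hochberg adjusted p under 0.05), which is 1.46% and 0.139% of the genes tested and 1.6% in both directions together. The genes that were higher had a median log2 fold change of 1.54, and 171 of them rose more than 2-fold. Those that were lower changed less, with a median of -0.62. The median over all genes tested was 0.02. For 4 genes every high heart was above every low heart, which is 0.0264% of the genes tested, and for 0 genes was every high heart below every low heart (0%). These 4 were S100P, IL1R2, TLR2 and LRRC25.

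**Figure D2:**
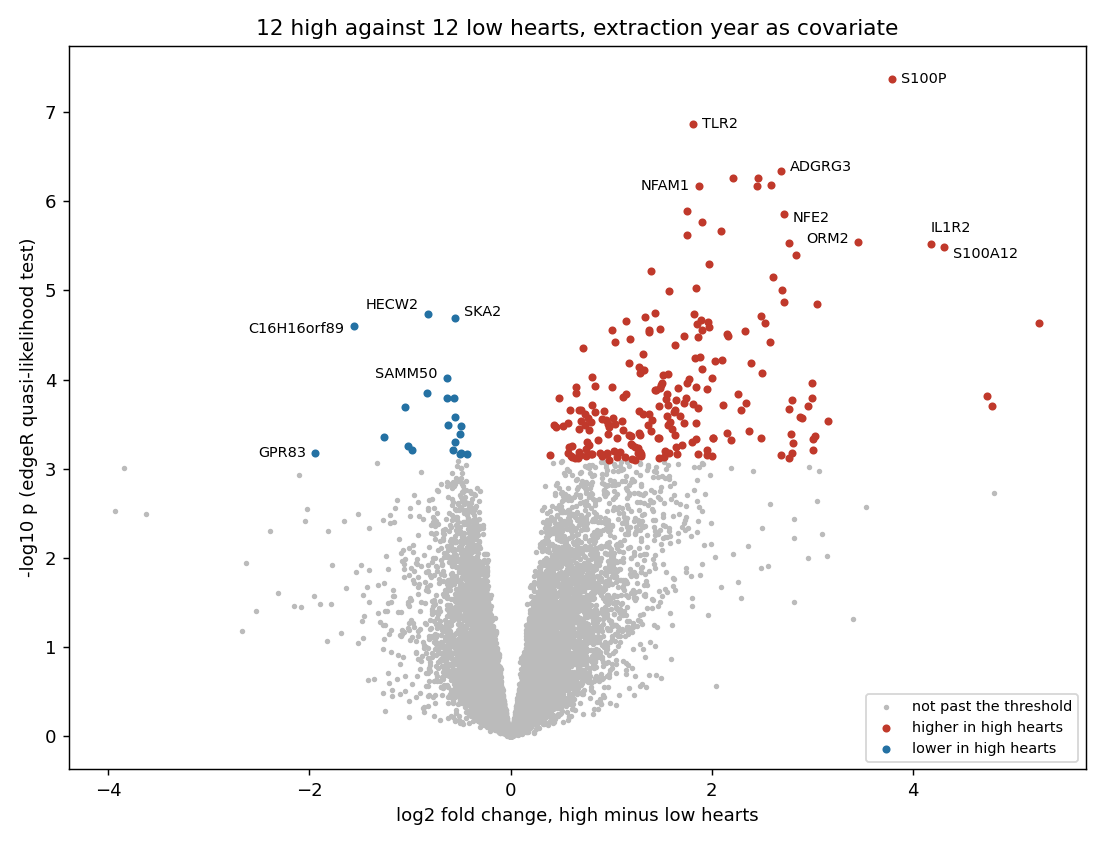
Log2 fold change (high minus low hearts) against -log10 p for 15156 genes, 12 high against 12 low hearts, with higher genes in red, lower genes in blue and genes not past the threshold in grey. The 221 higher genes reach further from 0 than the 21 lower genes, and S100P has the smallest p.

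Closest to S100A8 and S100A9 in kind are the other members of the S100 family, of which 2 of 13 tested rose and 0 fell. S100A12, which lies between S100A8 and S100A9 on the chromosome and is likewise a protein of neutrophils and monocytes, lay between 0.268 and 11.3 CPM (median 2.22) in the high hearts and between 0 and 0.852 CPM (median 0.109) in the low hearts. It was above every low heart in 10 of the 12 high hearts and at 0 in 2 low hearts, with a log2 fold change of 4.31 ± 0.72 (SE, adjusted p = 0.00291). S100P, another calcium-binding member, lay between 0.602 and 3.89 CPM (median 1.18) in the high hearts and between 0 and 0.433 CPM (median 0.103) in the low hearts. The groups did not overlap, and its log2 fold change was 3.79 ± 0.49 (SE, adjusted p = 0.000641). The other 11 tested members did not pass. S100A1, which cardiomyocytes make in quantity and which acts on calcium cycling in heart muscle, lay between 63.8 and 405 CPM (median 214) in the high hearts and between 82.4 and 671 CPM (median 384) in the low hearts, with a log2 fold change of -0.92 ± 0.30 (SE, adjusted p = 0.0981). S100A6, S100A10 and S100A11, made by many cell types, had log2 fold changes of 0.36, 0.40 and 0.56 (adjusted p = 0.339, 0.204 and 0.181), and S100A4 had 0.53 (adjusted p = 0.359). S100B was at -0.63 ± 0.55 (SE). S100A5, S100A7, S100A14 and S100Z were under the filter on low counts and were not tested. The pair of members that rose lay at a few CPM, while S100A1, with medians of 214 and 384 CPM, overlapped between them.

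Genes of neutrophil granules and surface were the next group, and 11 of the 21 tested rose while 0 fell, with a median log2 fold change of 1.95 against 0.02 over all genes. FPR1, the receptor for formylated peptides that guides neutrophils to bacteria and dying cells, lay between 1.14 and 17.6 CPM (median 6.62) in the high hearts and between 0.371 and 2.97 CPM (median 0.994) in the low hearts. All high hearts but 1 exceeded the highest low heart, and the log2 fold change was 2.59 ± 0.39 (SE, adjusted p = 0.00129). CSF3R, the receptor for the growth factor of granulocytes, lay between 0.963 and 46.4 CPM (median 8.57) in the high hearts and between 0.694 and 3.04 CPM (median 1.53) in the low hearts. Again 11 of 12 high hearts were above every low heart, with a log2 fold change of 2.69 ± 0.49 (SE, adjusted p = 0.00646). MMP9, a gelatinase stored in granules, had 3.05 ± 0.56 (SE, adjusted p = 0.00821). AQP9, a channel of the white cell surface, had 2.10 ± 0.44 (SE, adjusted p = 0.0154), and PADI4, the enzyme that citrullinates histones in neutrophil traps, had 2.80 ± 0.63 (SE, adjusted p = 0.0252). TREM1, FCAR, VNN2, BCL2A1 and MNDA also rose, with log2 fold changes between 1.84 and 2.87.

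The list also holds proteins that neutrophils store in granules while still in the marrow, and MPO, ELANE, CTSG and LTF were among its members that did not pass. MPO, the peroxidase of the first granules, lay between 0.23 and 3.11 CPM (median 1.18) in the high hearts and between 0.413 and 2.47 CPM (median 0.918) in the low hearts. The groups overlapped over most of their range, with a log2 fold change of 0.47 ± 0.42 (SE, adjusted p = 0.551). ELANE and CTSG, elastase and cathepsin G of the same granules, had 1.14 (adjusted p = 0.0972) and 0.96 (adjusted p = 0.35), and LTF, lactoferrin, had 1.35 (adjusted p = 0.099). Of the 36 genes listed, 2 were not in the table under that symbol (FPR2 and CD177) and 13 were under the filter on low counts, among them defining markers of neutrophils. CXCR2, the receptor for neutrophil chemokines, had medians of 0.334 CPM in the high and 0.0772 CPM in the low hearts. MMP8 was at 0 in 9 of 12 low hearts and reached 3.71 CPM in the high hearts. Genes pass the filter more easily when the high hearts express them, so counts over tested members describe the list and do not by themselves set it apart. Summed over the whole list the level was between 46.6 and 342 CPM (median 108) in the high hearts and between 26.4 and 79.0 CPM (median 38.6) in the low hearts. By this sum 9 of 12 high hearts stood above the highest low heart, 4x0043. The high hearts 676, 623 and 88A020 lay within the low range, at 46.6, 68.0 and 69.6 CPM. The low heart next to 4x0043, 389, had 45.6 CPM. Without heart 529 the members that rose numbered 5, with a median of 1.48. Without 529, 495 and 4X0339 together they numbered 5, with a median of 1.72. They also numbered 5 without 317 and 7 without each of 295, 503 and 522.

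**Figure D3:**
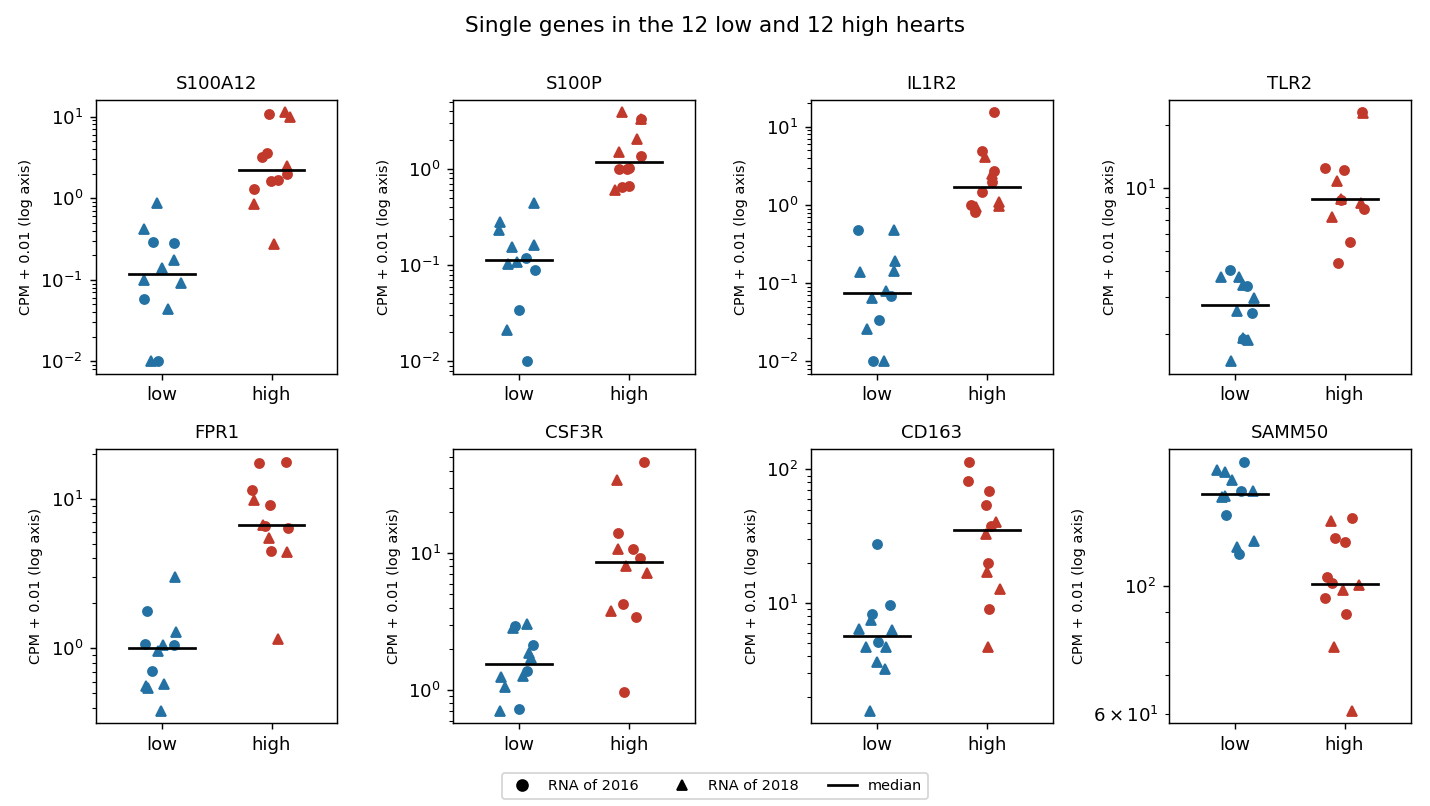
CPM plus 0.01 on log axes of 8 genes in each of the 12 low (blue) and 12 high (red) hearts, circles for RNA of 2016, triangles for RNA of 2018 and a line at the median. S100P, IL1R2 and TLR2 do not overlap between the groups, S100A12, FPR1 and CSF3R overlap in 1 or 2 high hearts, CD163 overlaps more, and SAMM50 is lower in the high hearts.

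Monocytes and tissue macrophages, the other myeloid cells of the heart, had 19 of their 39 tested genes higher. Among monocyte genes 6 of 19 rose and 0 fell (median log2 fold change 1.58), and among genes of tissue macrophages 13 of 20 rose and 0 fell (median 1.42). RETN, resistin, which in primates is a product of monocytes, lay between 2.63 and 34.7 CPM (median 7.66) in the high hearts and between 0.501 and 3.66 CPM (median 1.37) in the low hearts, with a log2 fold change of 2.45 ± 0.37 (SE, adjusted p = 0.00129). CD163, the scavenger receptor for haemoglobin on monocytes and macrophages and a gene induced by glucocorticoids, lay between 4.69 and 114 CPM (median 35.2) in the high hearts and between 1.55 and 27.8 CPM (median 5.66) in the low hearts. Of the 12 high hearts 7 were above the highest low heart, and the log2 fold change was 1.98 ± 0.38 (SE, adjusted p = 0.00954). Other defining genes of monocytes did not pass, with FCN1 at 1.51 (adjusted p = 0.103), VCAN at 0.52 (adjusted p = 0.44) and LYZ, lysozyme, at 1.66 (adjusted p = 0.108). VSIG4, a complement receptor of resident macrophages, had 2.15 ± 0.42 (SE, adjusted p = 0.00986). The subunits of complement C1q, C1QA, C1QB and C1QC, had log2 fold changes of 1.64, 1.81 and 1.48 (adjusted p = 0.028, 0.0269 and 0.0389). CD68, a lysosomal protein of macrophages, and LYVE1, which marks a resident population around vessels as well as lymphatic vessels, had 1.17 and 1.64. GPNMB, a gene of lipid-laden macrophages, stood at -0.48 (adjusted p = 0.5) and CD36, a fatty acid transporter that cardiomyocytes and vessels also make, at 0.06 (adjusted p = 0.93). The count moved with single hearts, and 3 macrophage members rose without heart 495, 4 without 522, 5 without 503, 6 without 317 and 2 without 529, 495 and 4X0339 together. They numbered 7 without each of 338, 476, 4X0339 and 554_2 and 8 without each of 295, 724, 4x0430, 4x523 and 4X0550. The monocyte members that rose numbered 5 to 10 over the 24 fits that each left out 1 heart, with 10 without 570. They numbered 5 without 529, 495 and 4X0339 together and 2 with age as a covariate.

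The 12 higher genes with the smallest p include further genes known from myeloid cells. NFAM1, FCER1G, LILRB3 and NAIP carry or sense signals in these cells, with log2 fold changes of 1.87 ± 0.28 (SE, adjusted p = 0.00129), 1.90 ± 0.30 (SE, adjusted p = 0.00233), 2.09 ± 0.34 (SE, adjusted p = 0.0027) and 2.21 ± 0.33 (SE, adjusted p = 0.00129). ALOX5, the enzyme that begins leukotriene synthesis, and its partner ALOX5AP had 1.76 ± 0.28 (SE, adjusted p = 0.0021) and 1.64 ± 0.33 (SE, adjusted p = 0.0114). SPI1, the transcription factor PU.1 that sets the myeloid fate, lay between 5.65 and 30.6 CPM (median 9.76) in the high hearts and between 2.31 and 6.29 CPM (median 3.55) in the low hearts, with 1.39 ± 0.24 (SE, adjusted p = 0.00457). NFE2, ADGRG3 and FOLR3 had 2.72 ± 0.43 (SE, adjusted p = 0.0021), 2.68 ± 0.40 (SE, adjusted p = 0.00129) and 2.46 ± 0.37 (SE, adjusted p = 0.00129). Integrins and kinases of white cell adhesion rose in 4 of 18 cases and fell in 0, among them the Src family kinase FGR (1.76 ± 0.29, SE, adjusted p = 0.00279). They numbered 14 without heart 4x0043 and 2 without 529, 495 and 4X0339. The median of 1.22 for this list was 0.69 without 529, 0.49 in RNA of 2016 and 1.69 in RNA of 2018.

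Receptors that S100A8 and S100A9 bind, and the pathway behind Toll-like receptors, were described as a list of their own. Of 22 genes tested, 4 rose and 0 fell, and the median log2 fold change was 0.44. TLR4 itself, the best known receptor, lay between 1.9 and 14.8 CPM (median 7.08) in the high hearts and between 1.33 and 7.72 CPM (median 3.78) in the low hearts, with a log2 fold change of 0.54 ± 0.23 (SE, adjusted p = 0.194). AGER lay between 1.05 and 28.1 CPM (median 2.54) in the high hearts and between 1.68 and 8.84 CPM (median 2.56) in the low hearts. The range of the low hearts lay within that of the high hearts (0.84 ± 0.38, SE, adjusted p = 0.235). LY96 and CD14, the partners of TLR4 at the membrane, had 0.44 (adjusted p = 0.359) and 0.65 (adjusted p = 0.205). CD33, a sialic-acid-binding receptor of myeloid cells to which S100A9 can bind, rose by 1.56 ± 0.35 (SE, adjusted p = 0.0241), and BSG, another reported receptor, which heart muscle makes at a high level, stood at -0.08 ± 0.11 (SE). TLR2, which senses bacterial lipoproteins, lay between 4.35 and 22.9 CPM (median 8.78) in the high hearts and between 1.47 and 4.04 CPM (median 2.75) in the low hearts. Its groups did not overlap, with a log2 fold change of 1.81 ± 0.25 (SE, adjusted p = 0.00102). Inside the cell, the adaptor MYD88 rose by 0.74 ± 0.18 (SE, adjusted p = 0.0324) and NFKB2, which NF-kB itself induces, by 1.11 ± 0.27 (SE, adjusted p = 0.0352). NFKBIA, the inhibitor of NF-kB, and its subunit RELA did not pass, with 1.10 ± 0.29 (SE, adjusted p = 0.0511) and 0.42 ± 0.11 (SE, adjusted p = 0.0515). The relays IRAK1, IRAK4, TRAF6, MAP3K7, TAB2 and TIRAP had log2 fold changes between -0.10 and 0.44, none past the threshold. Of this list 1 member rose without heart 495 and without 529, 495 and 4X0339 together, 2 rose without each of 295, 317, 476, 503, 522 and 4X0267, 7 without each of 4X0212 and 88A020 and 8 without 4x0043. Summed over the list the level was 1056 to 1701 CPM in the high and 663 to 1274 CPM in the low hearts.

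The list of neutrophil chemokines and early cytokines, which also holds cytokine receptors and an antagonist, had a median log2 fold change of 2.37. Of its 21 tested members 8 were higher and 0 lower, receptors and the antagonist among them. IL1R2, a decoy receptor that binds interleukin 1 without signalling and is made by neutrophils and under glucocorticoids, lay between 0.816 and 15.4 CPM (median 1.7) in the high hearts and between 0 and 0.468 CPM (median 0.0639) in the low hearts. Every high heart was above every low heart, and the log2 fold change was 4.17 ± 0.70 (SE, adjusted p = 0.00289). IL1RN, the antagonist of the same cytokine, had 2.33 ± 0.45 (SE, adjusted p = 0.00954), and IL18R1 and IL18RAP, which together form the interleukin 18 receptor, had 2.61 ± 0.46 (SE, adjusted p = 0.00513) and 2.37 ± 0.58 (SE, adjusted p = 0.0356). CXCL8, CXCL1 and CXCL3, ligands of the neutrophil receptors CXCR1 and CXCR2, had 2.77 ± 0.64 (SE, adjusted p = 0.028), 2.79 ± 0.68 (SE, adjusted p = 0.0371) and 2.96 ± 0.68 (SE, adjusted p = 0.027). CCL2, which draws monocytes, lay between 7.36 and 764 CPM (median 14.6) in the high hearts and between 5.82 and 14.6 CPM (median 10.1) in the low hearts. Above the highest low heart were 6 of 12 high hearts, and 529 and 570 reached 764 and 279 CPM, where no other high heart exceeded 47.3 CPM (3.01 ± 0.74, SE, adjusted p = 0.0394). IL6, the cytokine that drives the acute phase, lay between 0.14 and 141 CPM (median 0.38) in the high hearts and between 0.0547 and 2.37 CPM (median 0.228) in the low hearts. Its log2 fold change of 4.80 ± 1.37 (SE, adjusted p = 0.0692) did not pass, and the same hearts led, 570 with 141 and 529 with 76.1 CPM. The summed level of the list was 1963 CPM in 529 and 986 CPM in 570, and 4 of 12 high hearts were above the highest low heart. Without 529, 3 members rose and the median was 1.21, below those of the neutrophil, monocyte and macrophage lists without 529, 1.48, 1.45 and 1.52. The members that rose also numbered 3 without each of 295 and 503, 4 without each of 317, 476 and 522, and 5 without each of 4X0267, 4X0339, 554_2 and 95A014. Without 529, 495 and 4X0339 together 3 members rose, with a median of 1.14.

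Acute phase genes and genes induced by glucocorticoids had 4 higher members each. Of 14 acute phase genes tested 4 rose and 0 fell, with a median of 1.07. ORM2, an acute phase glycoprotein, lay between 0.115 and 5.99 CPM (median 0.949) in the high hearts and between 0 and 0.454 CPM (median 0.0957) in the low hearts, with a log2 fold change of 3.45 ± 0.57 (SE, adjusted p = 0.00289). SERPINA3, an inhibitor of cathepsin G, lay between 18.2 and 1426 CPM (median 67.9) in the high hearts and between 2.83 and 96.9 CPM (median 14.5) in the low hearts, with 3.02 ± 0.74 (SE, adjusted p = 0.0383), and 4 of 12 high hearts were above the highest low heart. STAT3 and SOCS3, the relay of interleukin 6 and its feedback inhibitor, had 1.06 ± 0.26 (SE, adjusted p = 0.0389) and 2.68 ± 0.69 (SE, adjusted p = 0.0468). The count of higher acute phase genes was 1 without each of 338, 495, 295, 317, 476, 503, 522, 554_2, 95A014, 4X0267 and 4X0339, 2 without each of 570 and 4X0550, and 7 without each of 4x0043 and 88A020. Among glucocorticoid-responsive genes 4 of 23 rose and 0 fell, with a median of 0.56, and the list holds IL1R2, CD163 and ALOX5AP, described above. The count was 7 without 4x0043 and 2 without 529, 495 and 4X0339. CEBPD, a transcription factor of the acute phase, lay between 13.9 and 169.5 CPM (median 51.6) in the high hearts and between 4.63 and 32.3 CPM (median 12.7) in the low hearts, with 1.97 ± 0.34 (SE, adjusted p = 0.00401). PDK4 and PIK3R1, which glucocorticoids raise in muscle, stood at 0.92 (adjusted p = 0.506) and -0.60 (adjusted p = 0.185). Hypoxia response genes rose in 1 of 22 cases (PFKFB4, 1.14 ± 0.30, SE, adjusted p = 0.0481) and immediate early genes in 1 of 20 (FOSL2, 1.28 ± 0.31, SE, adjusted p = 0.0368), each with 0 lower. These single calls were lost in 19 and 11 of the 24 fits that each left out 1 heart. Without 529, 495 and 4X0339 together 0 members of either list rose. The immediate early median was then -0.19, against 0.59 with these hearts. Of 15 heat shock genes none passed in either direction, and DNAJB1 reached 1341 CPM in 495 and 740.0 CPM in 529 against a highest low heart of 116 CPM.

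Lymphocyte genes did not pass with all 24 hearts. Of 24 T and NK cell genes 0 rose and 0 fell (median 0.66), and the same held for 11 genes of MHC class II presentation (median 0.61) and 8 tested genes of B and plasma cells (median 0.27). JCHAIN, the joining chain of secreted antibodies, lay between 1.97 and 708 CPM (median 6.75) in the high hearts and between 0.853 and 558 CPM (median 10.9) in the low hearts, and the highest high heart, 529, and the highest low heart, 4x0043, both stood far above the rest. Without 529 the medians of the T and NK and of the B and plasma cell list were -0.25 and -0.94, so their direction turned with this 1 heart. Without 4x0043 they rose to 1.42 and 1.89. In that fit 3 B and plasma cell genes and 1 MHC class II gene passed as higher, and 0 T and NK cell genes did. Interferon-stimulated genes rose in 2 of 30 cases and fell in 0 (median 0.49), namely IRF1 (1.40 ± 0.34, SE, adjusted p = 0.0354) and GBP2 (1.20 ± 0.30, SE, adjusted p = 0.0435), lost together in 13 of the 24 fits that left out 1 heart, while IFIT1 stood at -0.03 ± 0.28 (SE). Of 7 red cell genes none passed, and platelet genes rose in 1 of 12 (ITGA2B, 1.29 ± 0.33, SE, adjusted p = 0.0474), a call lost in 17 of these fits. Without 529, 495 and 4X0339 together 0 interferon-stimulated and 0 platelet genes rose.

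Among cells of the vessel wall, 2 of 17 genes of endothelial activation rose and 0 fell (median 0.86). ICAM1, the adhesion molecule that neutrophils grip, lay between 13.2 and 252 CPM (median 28.4) in the high hearts and between 6.23 and 21.7 CPM (median 13.1) in the low hearts, with a log2 fold change of 1.86 ± 0.43 (SE, adjusted p = 0.028). PLAUR, the urokinase receptor of vessels and white cells, had 1.66 ± 0.37 (SE, adjusted p = 0.0225). Of the endothelial activation genes 1 rose without each of 529, 317 and 503, and 0 without 529, 495 and 4X0339 (median 0.44). Summed over that list, heart 529 had 1964 CPM and the next, 570, had 789 CPM, and the median of the list was 0.38 in RNA of 2016 and 1.28 in RNA of 2018. Of 17 general endothelial genes 1 was higher (MMRN2, 0.64 ± 0.17, SE, adjusted p = 0.0484, lost in 17 of the 24 fits), with a median of 0.12 and VWF at 0.11 ± 0.21 (SE). That median was -0.19 in RNA of 2016 and 0.34 in RNA of 2018. It was -0.15 with age as a covariate and -0.11 without 529, 495 and 4X0339. Of 26 genes of fibroblasts and matrix and 15 of smooth muscle, none passed in either direction. Of 29 antioxidant genes 1 rose, HMOX1, the haem oxygenase that macrophages and stressed cells make (1.72 ± 0.34, SE, adjusted p = 0.01).

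Genes of heart muscle and of its mitochondria had medians below 0, and nearly all were short of the threshold. All 22 sarcomere genes had a log2 fold change below 0, with a median of -0.56, and none passed. Summed over the list they took 41731 to 143957 CPM in the high hearts (median 114565) and 121736 to 166697 CPM in the low hearts (median 142153), with 495 the lowest at 41731 CPM. TNNC1, cardiac troponin C, had -0.73 ± 0.22 (SE, adjusted p = 0.0829), and ACTC1, cardiac actin, had -1.05 ± 0.38 (SE, adjusted p = 0.134). All 16 calcium handling genes were likewise below 0 (median -0.40), 0 of them past the threshold. Without 529, 495 and 4X0339 the sarcomere median was -0.37 and the calcium handling median -0.21, with 1 gene of each list above 0. In RNA of 2016 these medians were -0.22 and -0.17, with 3 genes of each list above 0, and in RNA of 2018 they were -0.81 and -0.68, with 0 above 0. With age as a covariate they were -0.37 and -0.18, with 2 and 3 genes above 0. Of 34 nuclear genes of the respiratory chain, all below 0 with a median of -0.47, 1 was lower (0 without 529, 495 and 4X0339, median -0.33), NDUFB8 of complex I, which lay between 159 and 273 CPM (median 225) in the high hearts and between 249 and 323 CPM (median 277) in the low hearts, with a log2 fold change of -0.49 ± 0.13 (SE, adjusted p = 0.0468). The lists of cardiac stress, fatty acid oxidation, cytosolic ribosomal proteins and atrial, ventricular and fat cells had 0 members past the threshold, with medians between -0.43 and -0.14. Not all of these medians kept their sign. For fatty acid oxidation the median was 0.03 in RNA of 2016 and -0.24 in RNA of 2018. It was 0.20 with age as a covariate and 0.05 without 529, 495 and 4X0339. For cardiac stress it was 0.10 in RNA of 2016 and -0.72 in RNA of 2018. Members of a list share cells and libraries and CPM values compete for one total, so the common sign is given as a description. Without TMM scaling the median over all genes moved from 0.02 to 0.18, and the sarcomere and respiratory chain medians from these values to -0.43 and -0.34.

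Of the 21 lower genes, 20 have a symbol, and the 12 with the smallest p hold several whose proteins work in mitochondria, a grouping made after the values were seen. SAMM50, which inserts barrel proteins into the outer mitochondrial membrane, lay between 60.7 and 131 CPM (median 101) in the high hearts and between 113 and 164 CPM (median 144) in the low hearts, with a log2 fold change of -0.63 ± 0.14 (SE, adjusted p = 0.02). OXA1L, which inserts proteins into the inner membrane, had -0.62 ± 0.15 (SE, adjusted p = 0.0324), SLC25A11, the carrier of 2-oxoglutarate and malate, had -0.55 ± 0.13 (SE, adjusted p = 0.0304), FASTKD1, which binds mitochondrial RNA, had -0.56 ± 0.13 (SE, adjusted p = 0.0248), and MRPS31 of the mitochondrial ribosome had -0.50 ± 0.12 (SE, adjusted p = 0.0374). Most of the high hearts, 8 of 12, were below every low heart for SAMM50. HECW2, a ubiquitin ligase and the lower gene with the smallest p, had medians of 17.3 CPM in the high and 29.3 CPM in the low hearts, with -0.82 ± 0.16 (SE, adjusted p = 0.00945). SKA2 had -0.55 ± 0.11 (SE, adjusted p = 0.00945) and C16H16orf89 -1.56 ± 0.30 (SE, adjusted p = 0.00954), and TP53INP2, which acts in autophagy, had -0.83 ± 0.18 (SE, adjusted p = 0.0238). The other 3 of the 12, SNAP47, RABGAP1L and SPAG7, had -0.63, -1.05 and -0.49 (adjusted p = 0.0248, 0.0275 and 0.0328). The mitochondrially encoded genes, fitted apart, were lower in 0 of 13 cases. MT-ATP8 passed as higher, with hearts 529 and 4x0519 at 10717 and 1958 CPM and no other of the 24 above 36.9 CPM.

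**Figure D4:**
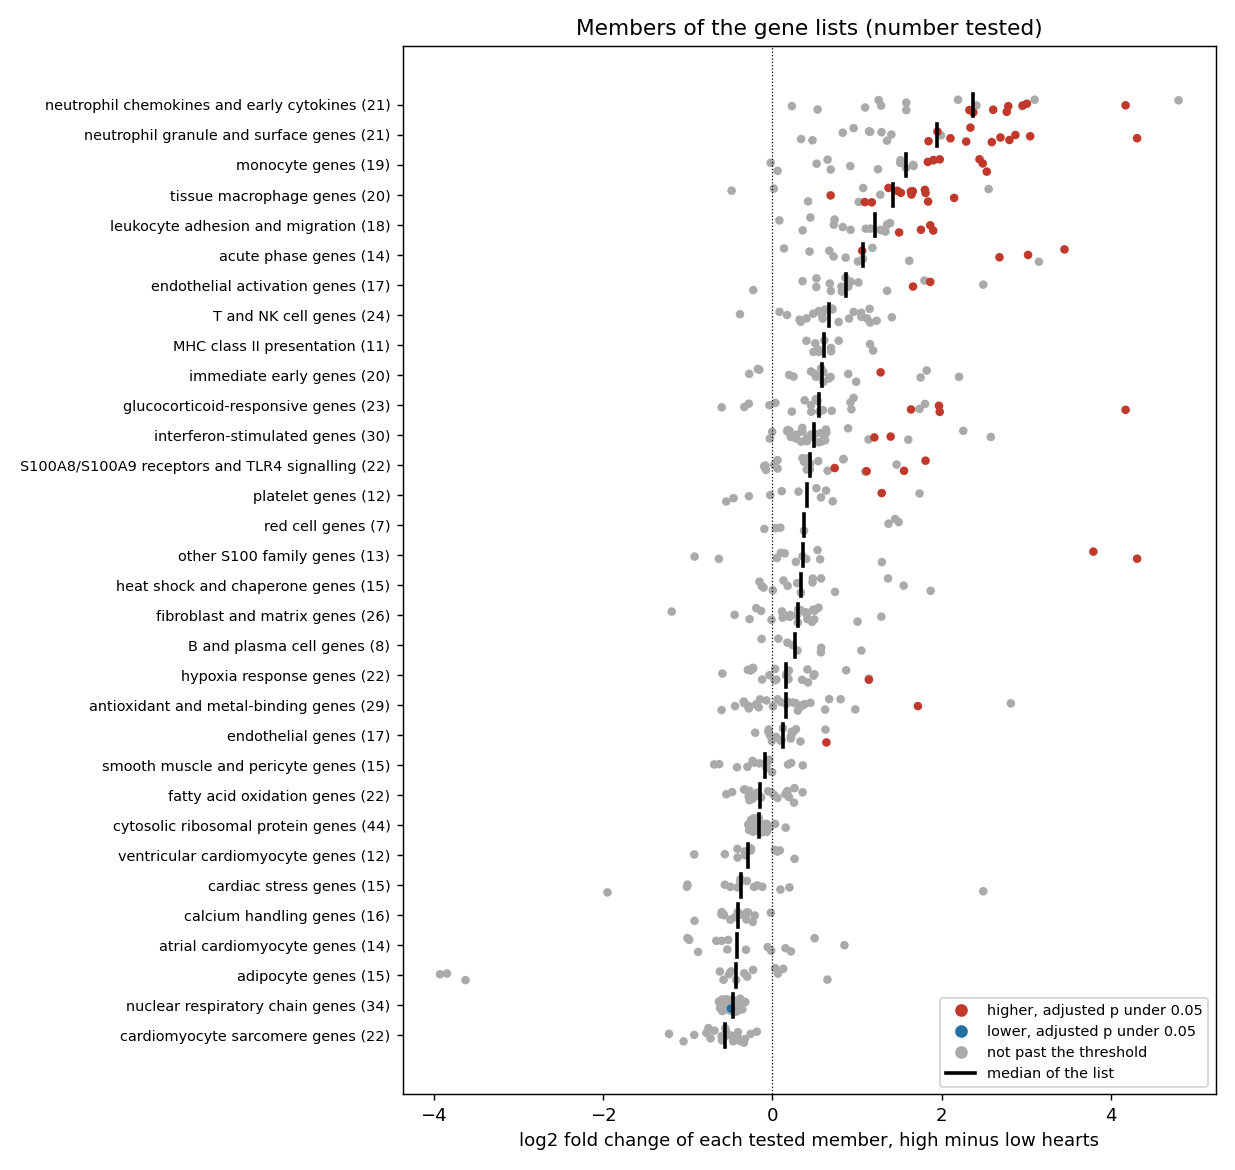
Log2 fold change (high minus low hearts) of each tested member of 32 gene lists, one row per list with the number tested, red and blue for members higher and lower at an adjusted p under 0.05, and a black bar at the median. The medians run from -0.56 for sarcomere genes to 2.37 for chemokines and cytokines.

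The groups were not balanced over extraction years, so each year was also fitted alone. All 221 higher genes were above 0 in both years where tested, with a median of 1.38 in 2016 and 1.62 in 2018, but these hearts are the same as in the joint comparison. In 2016 alone 0 genes were higher and 1 was lower (0% and 0.00641% of 15607, edgeR, with 668 at an unadjusted p under 0.05), and in 2018 alone 49 were higher and 3 lower (0.311% and 0.019% of 15749). The difference of the change between years passed for 0 of 15156 genes (0%, edgeR interaction term, 1039 at an unadjusted p under 0.05). Neutrophil genes had list medians of 2.22 in 2016 and 1.86 in 2018, and monocyte genes 1.49 and 1.48. T and NK cell genes stood at -0.81 and 1.75 and B and plasma cell genes at -2.07 and 2.43, where 4x0043 is 1 of the 4 low hearts of 2016 and 529 is 1 of the 5 high hearts of 2018.

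**Figure D5:**
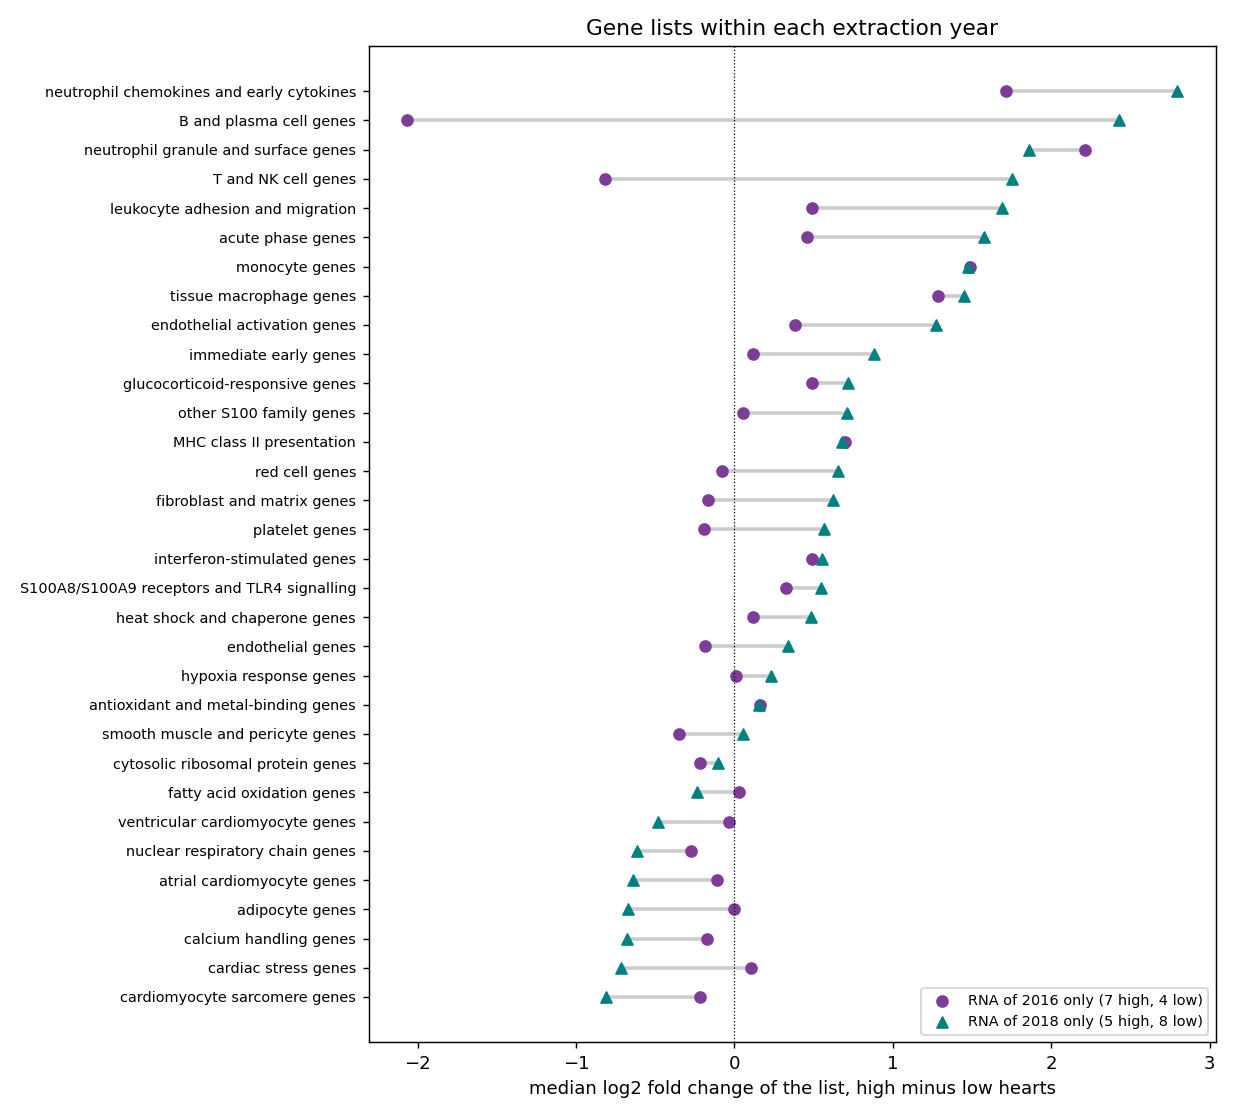
Median log2 fold change (high minus low hearts) of 32 gene lists within RNA of 2016 (circles, 7 high and 4 low hearts) and RNA of 2018 (triangles, 5 high and 8 low hearts). Neutrophil, monocyte and macrophage lists lie above 0 in both years, and the T and NK and the B and plasma cell lists lie on opposite sides of 0.

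The 13 hearts between the groups took no part in the comparison, and among them the slope of each gene on the mean of S100A8 and S100A9 was tested. Their scores ran only from 3.12 to 4.64, and 0 of 16321 genes passed (0%, edgeR, 670 at an unadjusted p under 0.05). Near the top of these scores were 558, Little_R and 537, with 53.9%, 48.3% and 60.1% of their counts on mitochondrially encoded genes. Little_R and 537 had the lowest median correlations with the other hearts of the series, 0.736 and 0.807. The study names both as outliers from the same technical batch. Whether the slopes depend on these hearts was not tested. Of the 221 higher genes, 182 had a slope above 0, with a median of 0.54 log2 units per unit of the score, against 49.7% above 0 among all genes. S100A12 and IL1R2 had slopes of 2.75 and 2.34, and the chemokine list had a median slope of 1.55 and the neutrophil list 0.62. The heat shock list had a higher median, 1.80 (13 of 15 above 0), and the acute phase and fibroblast lists had 1.40 and 0.97. The sarcomere, calcium handling and respiratory chain lists had -0.73, -0.84 and -0.88, with 0 genes of each above 0. The monocyte list had a median slope of -0.16, with 7 of 21 members above 0. The macrophage list was at 0.01, CD163 at -0.62 and ALOX5 at -1.17. None of these slopes passed.

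Age moved with the groups, as given above. With age as a covariate in the 21 hearts that have one, 36 genes were higher and 6 lower (0.237% and 0.0395% of 15197), and of the 221 higher genes 28 passed and 221 kept their sign, with a median of 1.34. S100P, S100A12, TLR2, FPR1, RETN and IL1R2 passed in this fit (adjusted p = 0.0105, 0.0105, 0.0105, 0.0189, 0.0105 and 0.0179), and CSF3R, CXCL8 and CCL2 did not (adjusted p = 0.109, 0.454 and 0.567). That fit lacks 529, 495 and 554_2, whose ages are missing. Without 529, 495 and 4X0339, 56 genes were higher and 5 lower. Leaving out 1 heart moved the count of higher genes by over 1.5 times for 12 of the 24 hearts, down to 99 (without 503), 108 (317), 110 (495), 112 (522), 116 (295), 116 (529), 124 (476), 134 (95A014) and 140 (554_2), and up to 419 (4X0212), 425 (88A020) and 583 (4x0043). Of the 221 higher genes 72 passed in all 24 of these fits.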

How the data were processed

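The deposited read counts per annotated gene were produced by the authors with STAR 2.6.1b (its gene count option) on the genome Pan_tro_3.0 with an Ensembl annotation, from single-end reads of polyadenylated RNA. The strand setting is not given in the sources used here, so overlapping and antisense genes may share reads, as may near-identical copies. A second table of counts on orthologous exons, made by the authors with featureCounts, served as an alternative. The tables also hold 52 columns of no sample of the series, which were not used. Of 31373 genes in the table, 18040 have a symbol.

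CPM used the column total without the 13 mitochondrially encoded genes, which were fitted apart. The ranking used log2(CPM + 0.5). Extraction year, RIN, sex, age, center and virus notes came from the study's sample table, by which extraction year and newly made against published libraries cannot be told apart. Each heart is 1 animal, so p-values measure the spread between animals, some of them related.

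Counts were tested with edgeR 4.0.16 in R 4.3.3 (filterByExpr, TMM, robust quasi-likelihood fit, extraction year and group as terms), with Benjamini-Hochberg adjustment over all genes tested and a threshold of 0.05. S100A8 and S100A9 were left out of the test. Standard errors are the log2 fold change divided by the square root of the F value. Quality measures were compared with 100000 shuffles within extraction year. The steps were tested on simulated data. Of genes with a symbol, those named are the 12 higher and the 12 lower ones of smallest p and others drawn from up to 3 of each list by p (up to 2 by mean count where none passed), and any of the S100, neutrophil and receptor lists. Values were known when any further gene was picked. The hearts, gene lists and tests were chosen with earlier results of these data known, and lists were described without a set test. Alternatives were DESeq2 1.42.0, other filters, scalings, covariates, group sizes and sets of hearts. Some results are not reported here.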

Additional observations from a re-analysis of the deposited data

How the results depend on the processing

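The 221 higher genes, 21 lower genes and 63 passing list members became 622, 216 and 117 with DESeq2, 141, 3 and 39 with the 8 highest against the 8 lowest hearts, and 436, 35 and 95 as a slope on the score over all ranked hearts. The slope gave 560, 70 and 105 without 537 and Little_R, which are in neither group. Without TMM they were 898 higher genes and 110 members, without a filter on low counts 12 lower genes and 40 members, without extraction year 80 lower genes, and with the mitochondrial share as a covariate 32 lower genes. RNA of 2016 alone gave 0, 1 and 0, RNA of 2018 alone 49, 3 and 9, and the hearts between 0, 0 and 0. Chosen after seeing the data, age as a covariate gave 36, 6 and 15, leaving out 529, 495 and 4X0339 gave 56, 5 and 21, and leaving out 338 gave 11 lower genes. A threshold of 0.01 left 44 higher and 3 lower genes. Leaving out single hearts gave 99 to 583 higher genes, 7 to 133 lower genes and 32 to 101 list members. The cause of these shifts was not tested, apart from the fewer hearts or the stricter threshold that some settings have by construction. Over 62 named genes that passed and 17 settings, 1044 of 1053 values kept their direction. The exceptions, all slopes in the hearts between, were NAIP (-0.21), RETN (-0.16), ALOX5 (-1.17), FCER1G (-0.10), CD163 (-0.62), VSIG4 (-0.031), CD33 (-0.21), PADI4 (-0.35) and MNDA (-0.23). All other settings used hearts in which these genes had been called, so a kept direction there was nearly fixed in advance. Of the 221 higher genes, 0 passed in RNA of 2016 alone and 36 in RNA of 2018 alone. With age 28 passed, and without 529, 495 and 4X0339 52 passed. No paired analysis was possible because the labels put all hearts in 1 group and give no replicate numbers that pair them. Depth limits the genes at 0 in low hearts, such as IL1R2 and S100A12, whose fitted fold changes depend on the prior count.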

Other observations

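The genes given here were picked with their values in view. An unnamed gene, ENSPTRG00000044716, had the highest log2 fold change of those that rose, 5.25 (adjusted p = 0.00945), and lay between 0.766 and 624 CPM (median 17.7) in the high hearts and between 0.167 and 5.31 CPM (median 0.615) in the low hearts.

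Genes of fat cells were highest in a few low hearts. PLIN1, which coats lipid droplets, lay between 0.0418 and 2.83 CPM (median 0.387) in the high hearts and between 0.199 and 155 CPM (median 0.809) in the low hearts, and the low hearts 4X0267, 389 and 4x0043 had 155, 52.1 and 19.6 CPM. CIDEC, another protein of lipid droplets, led in the same hearts, with 84.7, 31.4 and 10.6 CPM. Their log2 fold changes of -3.93 ± 1.19 (SE, adjusted p = 0.0823) and -3.84 ± 1.03 (SE, adjusted p = 0.0529) did not pass. GPR83, a receptor of the brain and of regulatory T cells, passed as lower with -1.94 ± 0.50 (SE, adjusted p = 0.0468).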
